A study of Homo sapiens with 12 samples.

Results

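Aminoacyl-tRNA synthetases, the enzymes that load each tRNA with its amino acid, were examined at the mRNA level in human K562 leukemia cells with and without imatinib resistance and lycorine. The members were 35 genes picked by symbol from a fixed list, out of 19447 gene symbols in the count table, and all 35 were found and passed the low-count filter in every comparison. By compartment, 19 members encoded cytosolic enzymes, and 16, with symbols ending in 2, encoded mitochondrial enzymes. The measurement was poly(A) RNA sequencing of 12 libraries in 4 groups of 3. K562 is a myeloid leukemia line that carries BCR-ABL1, and K562/IM is its imatinib-resistant derivative, which the study raised by stepwise exposure of K562 to imatinib. The groups were untreated K562, K562+L (K562 given lycorine, an alkaloid of Amaryllidaceae plants), K562/IM without lycorine, and a group labelled K562/IM+L (K562/IM given lycorine). The study describes K562/IM growing in medium that contained imatinib. The labels do not say whether imatinib was present at harvest, so line and imatinib exposure cannot be told apart. K562/IM was 1 derived line, so its differences from K562 are those of that line, and the labels do not say whether the 3 libraries of a group came from separate cultures. The p-values therefore measure only the spread between these libraries, which may be technical.

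A synthetase joins an amino acid to its tRNA at the cost of ATP, and the charged tRNA is carried to the ribosome by an elongation factor. Most amino acids have separate nuclear genes for the cytosolic and the mitochondrial enzyme, while GARS1 (glycine) and KARS1 (lysine) serve both compartments. When a tRNA stays uncharged, the kinase GCN2 phosphorylates eIF2 and translation of ATF4 rises, and ATF4 in turn drives genes of amino acid synthesis, amino acid uptake and several cytosolic synthetases. IARS1, LARS1, MARS1, QARS1, RARS1, KARS1 and EPRS1 belong to the multi-synthetase complex, which is held together by the scaffold proteins AIMP1, AIMP2 and EEF1E1.

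Promoter bases are shown because ATF4 acts through a C/EBP-ATF response element (CARE), and because motifs of factors that drive nuclear genes for mitochondrial proteins can be read beside the values of the members. RefSeq promoters (GRCh38.p14) were matched for 30 of the 35 members, all but LARS1, VARS1, YARS1, AARS2 and VARS2. The 250 bases before each start were searched on both strands. Only the first listed promoter of a member was used, so any other starts were not searched. Shares over all promoters count every entry. The CARE letters TGATGNAA were present in 3.14% of 35116 promoters, in 2 of 16 cytosolic members (AARS1 and IARS1) and in 1 of 14 mitochondrial members (YARS2). Each line below gives 60 bases, 5′ to 3′ on the strand of the gene, with the CARE match in capitals.
AARS1, chr16:70289657-70289716, minus strand: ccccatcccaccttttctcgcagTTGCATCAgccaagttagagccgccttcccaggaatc
IARS1, chr9:92293698-92293757, minus strand: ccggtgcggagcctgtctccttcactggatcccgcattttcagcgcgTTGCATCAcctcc
YARS2, chr12:32756058-32756117, minus strand: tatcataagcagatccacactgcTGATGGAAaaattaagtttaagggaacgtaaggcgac

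In AARS1 the match lay at -187 to -180 from the start, in IARS1 at -13 to -6 and in YARS2 at -197 to -190. The letters GCGCATGC, bound by nuclear respiratory factor 1 (NRF1), were in 2.63% of all promoters, in 0 of 16 cytosolic members and in 2 of 14 mitochondrial members, MARS2 and YARS2. In MARS2, whose mRNA had the widest range among the groups, overlapping NRF1 matches on both strands and a CACGTG E-box (the letters bound by MYC and related factors) lay within 60 bases of the start, and both are in capitals here.
MARS2, chr2:197705309-197705368, plus strand: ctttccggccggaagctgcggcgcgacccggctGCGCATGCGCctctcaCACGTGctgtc

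The E-box letters were in 6.34% of all promoters, in 1 of 16 cytosolic members (IARS1) and in 2 of 14 mitochondrial members (EARS2 and MARS2). The ETS letters CCGGAAGT were in 3.42% of all promoters, in 4 of 16 cytosolic members (CARS1, HARS1, NARS1 and WARS1) and in 3 of 14 mitochondrial members (EARS2, HARS2 and PARS2). HARS1 and HARS2, the cytosolic and mitochondrial histidyl enzymes, stand head to head on chromosome 5, and their promoter windows share 84 bases that hold an ETS match at either end, in capitals.
HARS1 and HARS2, chr5:140691371-140691454, plus strand: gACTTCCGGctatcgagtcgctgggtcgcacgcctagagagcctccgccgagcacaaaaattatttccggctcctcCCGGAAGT

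A match describes these letters only, and no match says nothing of whether a factor binds. In GENCODE 29 the genes themselves overlap, with HARS1 at chr5:140673904-140691862 on the minus strand and HARS2 at chr5:140691426-140699318 on the plus strand. Exons of other genes covered 15.8% of the exon bases of HARS2, 22.0% of VARS2 (shared with GTF2H4) and 57.0% of SARS2 (shared with MRPS12 and a read-through gene), and strand use in the counting is not given in the sources used here. Reads of these 3 members and of their neighbours may therefore be mixed. In no other member did the share exceed 13.3% (MARS1, shared chiefly with ARHGAP9 and DDIT3).

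Sequencing depth was 75093844 to 107344598 counts per library, and the lowest count of a member in any library was 485. Small values in the table were enriched for multiples of 4 and the numbers just above them, so a unit of the table may not be 1 sequenced read, and these totals are depth only in the units of the table. No libraries of a group were alike within sampling noise. The erythroid identity markers fixed for K562 (8 genes, all above 0) summed to 4778 to 7000 CPM (counts scaled to a common library size) in K562, 3517 to 4092 in K562+L, 1859 to 2078 in K562/IM, whereas the libraries labelled K562/IM+L reached 22593 to 30772. Markers of other blood cells (9 genes, with MS4A1 at 0 in all 12 libraries) summed to 111 to 118, 109 to 128, 186 to 195 and 76.6 to 81.2 CPM in the same order. Markers of stroma, endothelium and epithelium (5 genes) summed to 124 to 133, 107 to 120, 50.2 to 55.3 and 85.2 to 106 CPM. In bulk RNA, fewer cells of a kind and less RNA per cell cannot be told apart. ABCB1, the drug efflux pump P-gp, was at 23.0, 21.9 and 25.9 CPM in K562/IM and only 0.705, 0.488 and 1.06 CPM for the 3 libraries with the K562/IM+L label, below the 1.68 to 1.86 CPM of K562. By label these libraries were also given lycorine, so the line and the drug cannot be told apart as the source of this difference. Every direction drawn from these 3 libraries rests on their label.

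Among the synthetases themselves, the cytosolic members were the more abundant class, and the order within each class changed between groups. Levels are comparable between genes only per length, so CPM were divided by the merged exon length in kilobases. In K562 the highest mean levels per kilobase were those of KARS1 at 218, SARS1 (serine) at 176, AARS1 (alanine) at 164, VARS1 (valine) at 162 and GARS1 at 157. The lowest were those of mitochondrial MARS2 (methionine) at 9.95, WARS2 (tryptophan) at 8.07 and PARS2 (proline) at 4.90. IARS2 (mitochondrial isoleucine), at 94.6, stood among the cytosolic members, and HARS1, at 20.6, stood among the mitochondrial ones. For the labelled K562/IM+L libraries AARS1, at 162, was the highest and MARS2, at 2.72, the lowest.

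Summed over the 19 cytosolic members, the level per kilobase was 2065 to 2250 in K562, 2030 to 2089 in K562+L, 1597 to 1656 in K562/IM, and was lowest, 1337 to 1371, for the labelled K562/IM+L libraries. The 16 mitochondrial members summed to 357 to 379 in K562, 399 to 409 in K562+L, 302 to 310 in K562/IM and 297 to 304 in the labelled libraries. K562 and K562+L overlapped in the cytosolic sum and not in the mitochondrial sum, where K562+L was the higher. The quotient of the sums, cytosolic over mitochondrial, was 5.86 ± 0.189 (SD, n = 3) in K562, 5.08 ± 0.0789 in K562+L, 5.30 ± 0.0545 in K562/IM, and 4.50 ± 0.00296 where the label is K562/IM+L. The 4 groups did not overlap in this quotient, and K562 was the highest. GARS1 and KARS1, which serve both compartments, were counted in the cytosolic sum, so the quotient does not fully separate the compartments.

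**Figure D1:**
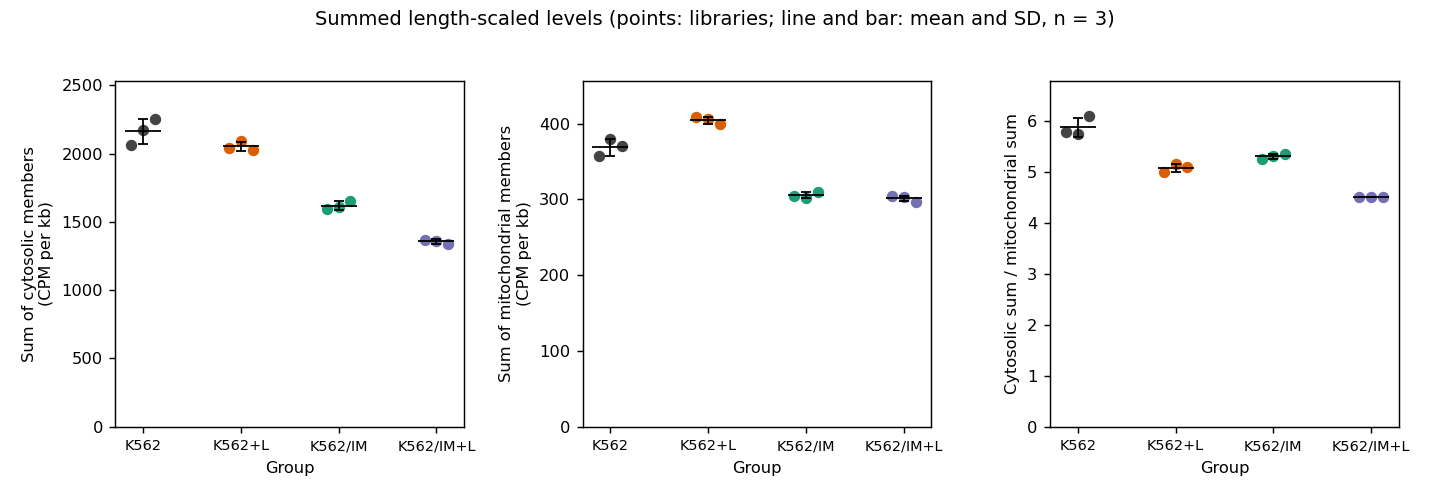
Summed levels per kilobase of the 19 cytosolic members (left), of the 16 mitochondrial members (middle) and their quotient (right), with 1 point per library and the mean and SD of each group. The quotient runs from 4.50 in the libraries labelled K562/IM+L to 6.08 in 1 K562 library, and the 4 groups stand apart.

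**Figure D2:**
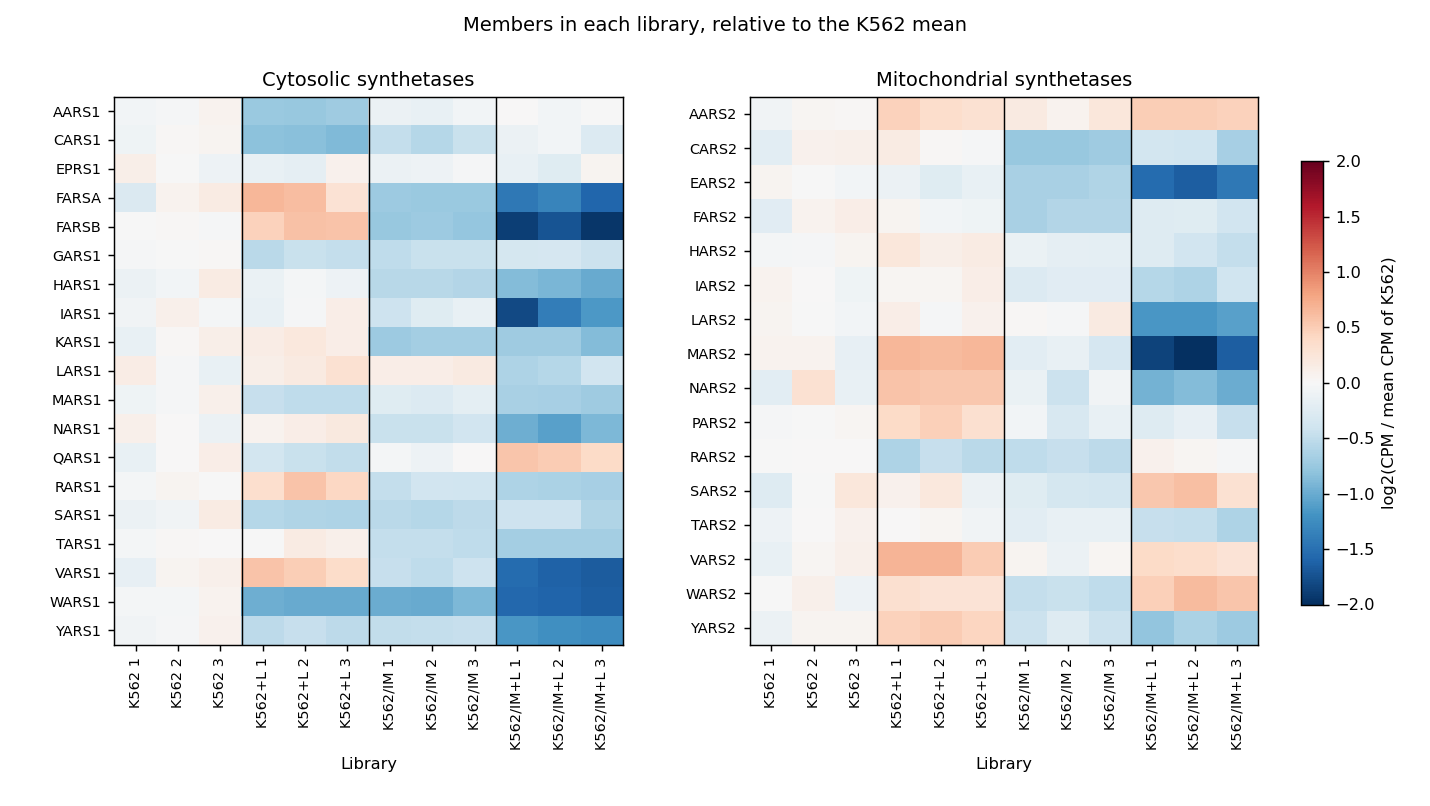
Level of each member in each of the 12 libraries as log2 of CPM over the mean CPM of K562, cytosolic members on the left and mitochondrial members on the right. K562+L has members in both colours, K562/IM is mostly below K562, and FARSB and MARS2 have the darkest rows under the K562/IM+L label.

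The first comparison asked what lycorine did in imatinib-sensitive K562, and the classes differed in their main direction. A gene was called at an adjusted p under 0.05 (edgeR, quasi-likelihood F test, Benjamini-Hochberg over all genes tested). Among the 19 cytosolic members 4 were higher and 8 lower in K562+L, and among the 16 mitochondrial members 7 were higher and 1 lower. Over all 12927 genes tested, 18.2% were called higher and 19.0% lower. The median log2 fold change was -0.07 for the cytosolic members, 0.12 for the mitochondrial members and -0.00 for all genes. No member passed an absolute log2 fold change of 1 together with the adjusted p, against 6.39% of all genes.

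WARS1, the cytosolic tryptophanyl enzyme and a known interferon-induced gene, was at 473, 474 and 510 CPM in K562 and at 247, 240 and 242 CPM in K562+L. It fell by 1.00 ± 0.07 on the log2 scale (standard error, as for all fold changes here; adjusted p = 0.000151), the largest change of the class. CARS1 (cysteine) was at 131, 141 and 144 CPM in K562 and at 78.9, 78.1 and 75.1 CPM in K562+L, and AARS1 was at 549, 560 and 602 CPM against 341, 336 and 350 CPM. In these 3 genes every K562+L library was below every K562 library. CARS1 fell by 0.85 ± 0.08 (adjusted p = 0.000437) and AARS1 by 0.74 ± 0.07 (adjusted p = 0.000475). The other cytosolic members called lower were SARS1 (-0.59 ± 0.09), YARS1 (tyrosine, -0.50 ± 0.08), MARS1 (methionine, -0.50 ± 0.08), GARS1 (-0.48 ± 0.07) and QARS1 (glutamine, -0.43 ± 0.09).

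The phenylalanyl enzyme is built of a catalytic subunit from FARSA and a second subunit from FARSB, and both were higher. FARSB was at 188, 193 and 187 CPM in K562 and at 262, 285 and 282 CPM in K562+L, and rose by 0.55 ± 0.08 (adjusted p = 0.0018). FARSA was at 233, 300 and 320 CPM against 449, 435 and 347 CPM, and rose by 0.53 ± 0.14 (adjusted p = 0.0232). Of the 2 subunits FARSA had the wider spread in both groups, and it lost the call without K562 replicate 2 (adjusted p = 0.0568), K562+L replicate 1 (0.0908) or K562+L replicate 2 (0.0714). VARS1 was at 622, 730 and 748 CPM in K562 and at 1035, 986 and 900 CPM in K562+L, a rise of 0.47 ± 0.10, and RARS1 (arginine) was at 189, 202 and 192 CPM against 246, 289 and 259 CPM, a rise of 0.45 ± 0.09. In the multi-synthetase complex 1 of 7 members was higher (RARS1) and 2 were lower (MARS1 and QARS1). IARS1 had a log2 fold change of -0.01 ± 0.10 and was not called. LARS1 (leucine), KARS1, EPRS1 (glutamate and proline), NARS1 (asparagine), TARS1 (threonine) and HARS1 lay between -0.10 and 0.20 and were not called either.

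MARS2 was the mitochondrial member with the largest change, at 31.5, 31.6 and 26.9 CPM in K562 and 47.5, 46.7 and 47.6 CPM in K562+L. It rose by 0.65 ± 0.09 (adjusted p = 0.00207). VARS2 was at 72.9, 83.4 and 86.8 CPM against 130, 130 and 115 CPM, and rose by 0.62 ± 0.10 (adjusted p = 0.00317). NARS2 was at 46.6, 66.6 and 48.5 CPM against 79.6, 78.1 and 78.1 CPM, and rose by 0.54 ± 0.14 (adjusted p = 0.0184), a call lost without K562+L replicate 1 (adjusted p = 0.0654). For all 3 genes the groups did not overlap, although 1 K562 library of NARS2 stood well above the other 2. YARS2 (43.6, 48.7 and 48.7 CPM in K562, and 64.6, 67.0 and 63.2 CPM in K562+L) rose by 0.47 ± 0.09. AARS2 (77.8, 84.5 and 83.5 CPM, and 113, 105 and 102 CPM) rose by 0.38 ± 0.09. PARS2 rose by 0.39 ± 0.09 and lost the call without K562 replicate 2 (adjusted p = 0.0641) or K562+L replicate 2 (0.0547).

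RARS2 was the 1 mitochondrial member called lower, at 80.7, 81.8 and 81.8 CPM in K562 and 53.0, 59.1 and 56.2 CPM in K562+L, and it fell by 0.54 ± 0.08 (adjusted p = 0.00256). WARS2 was at 22.8, 24.5 and 21.3 CPM in K562 and 28.6, 27.7 and 27.6 CPM in K562+L, a change of 0.29 ± 0.09 (adjusted p = 0.0378). Its call did not hold when any 1 of the 6 libraries was left out (adjusted p 0.0557 to 0.106). The remaining mitochondrial members, SARS2, CARS2, FARS2, EARS2, HARS2, IARS2, LARS2 and TARS2, lay between -0.17 and 0.17 and were not called.

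In 5 of the 15 pairs of a cytosolic and a mitochondrial gene for the same amino acid (FARS2 being paired once with each of FARSA and FARSB), the partners were called in opposite directions. AARS1, MARS1, WARS1 and YARS1 fell while AARS2, MARS2, WARS2 and YARS2 rose, and RARS1 rose while RARS2 fell. Since the classes had different main directions, opposite pairs can arise without a link between partners. The number to expect from that alone was not worked out, here or in the later comparisons. MARS1 was at 342, 355 and 387 CPM in K562 and at 261, 255 and 253 CPM in K562+L, and YARS1 at 378, 391 and 421 CPM against 276, 289 and 275 CPM. The quotient of the partners per kilobase moved accordingly. WARS1 over WARS2 was 13.8, 12.9 and 16.0 in K562 and 5.78, 5.79 and 5.85 in K562+L. MARS1 over MARS2 was 11.3, 11.7 and 14.9 against 5.71, 5.67 and 5.53, and RARS1 over RARS2 was 1.88, 1.98 and 1.88 against 3.73, 3.92 and 3.70. Both groups stood apart in each of these 3 quotients.

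**Figure D3:**
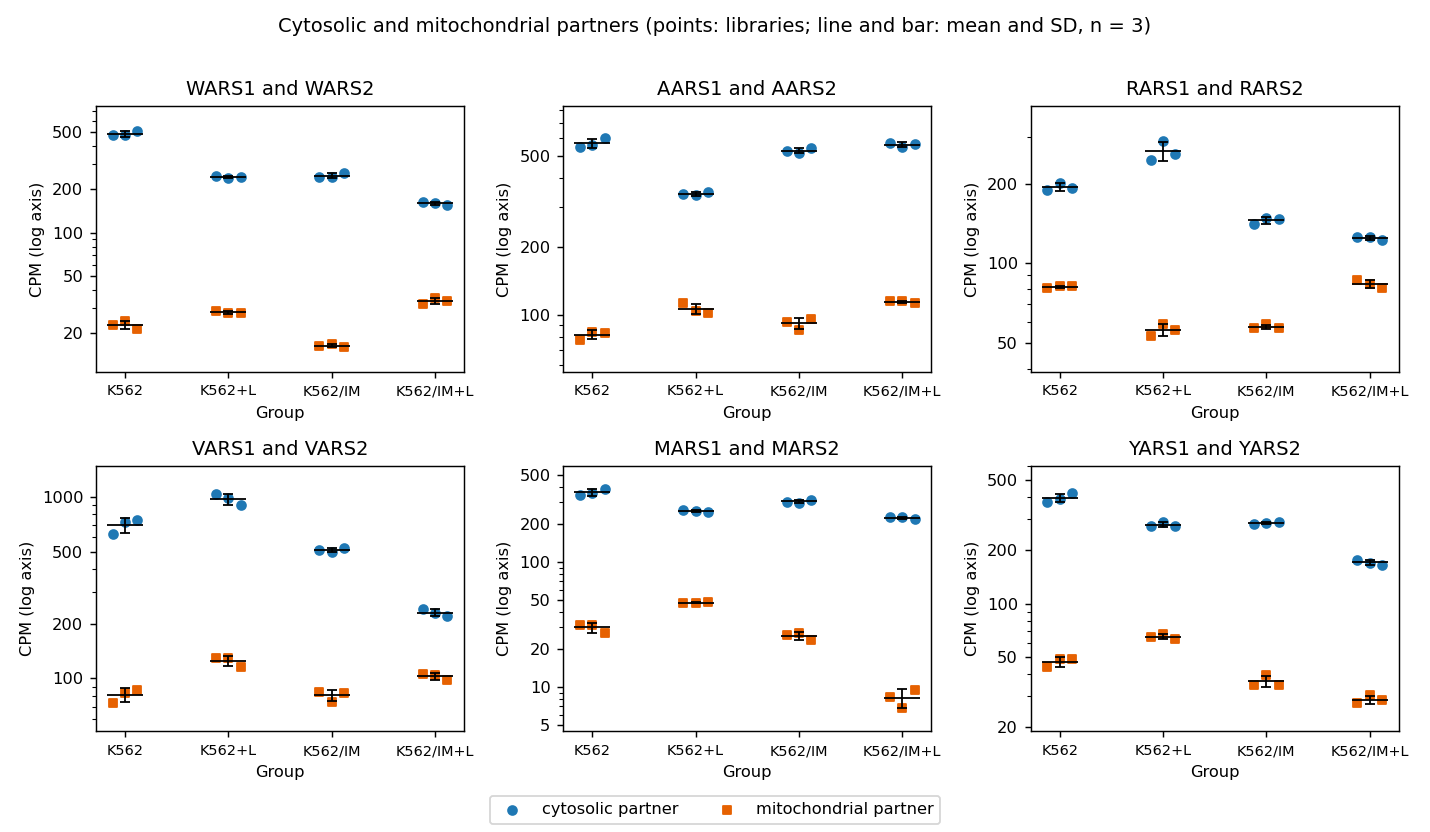
CPM of 6 pairs of cytosolic (circles) and mitochondrial (squares) partners in each library on a log axis, with the mean and SD of each group of 3. WARS1 runs from 510 CPM in K562 down to 155 CPM under the K562/IM+L label, while WARS2 is at 16.0 to 16.9 CPM in K562/IM and at 31.7 to 35.4 CPM in the labelled libraries.

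Genes around the synthetases moved in part with the cytosolic class. In the list of uncharged-tRNA sensing and ATF4 targets, 7 of the 31 genes tested were higher and 17 lower in K562+L, with a median log2 fold change of -0.44. ATF4 itself fell by 0.67, and the largest changes were those of CHAC1, a glutathione-degrading enzyme (-3.59 ± 0.28), PHGDH, the first enzyme of serine synthesis (-2.45 ± 0.16), and PSAT1, the next enzyme of that route (-1.83 ± 0.08). Among the 3 scaffold genes of the multi-synthetase complex, AIMP2 (0.88 ± 0.12) and AIMP1 (0.26 ± 0.08) rose. Of 5 cytosolic elongation factor genes, 3 fell and none rose. EEF1B2, a subunit of the exchange factor that recharges EEF1A1 (the carrier of charged tRNA) with GTP, had the largest change (-0.95 ± 0.11). The erythroid marker list had 4 of 8 genes lower and none higher in K562+L, and its part in these differences was not tested. In the list of tRNA processing and export 4 of 22 genes were higher and 1 lower, in that of mitochondrial translation factors 2 of 10 were higher and 1 lower, and among the other charging and editing genes 3 of 13 were higher and 3 lower. Over all genes tested 18.2% were called higher and 19.0% lower, and no list was tested against these shares.

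The second comparison set K562/IM against K562, both without lycorine, and asked how the resistant line differs. No member of either class was called higher in K562/IM, while 15 of 19 cytosolic and 7 of 16 mitochondrial members were lower. Among all 13406 genes, 30.1% were called higher and 27.1% lower. The median log2 fold change was -0.47 for the cytosolic members, -0.23 for the mitochondrial members and 0.04 for all genes. No member passed an absolute log2 fold change of 1, against 19.1% of all genes. Cell type markers differed as well, with 6 of 8 erythroid markers lower, 4 past an absolute log2 fold change of 1, and a median of -1.01. Of the markers of other blood cells 4 of the 5 tested were higher, and of those of stroma, endothelium and epithelium 3 of 4 were higher and 1 lower. The sum of this last list nevertheless was lower, 50.2 to 55.3 CPM in K562/IM against 124 to 133 CPM in K562. The part of all these markers in the differences of the synthetases was not tested. This comparison and the first share the K562 libraries, so their values are given side by side and not related to each other.

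WARS1 was at 245, 242 and 260 CPM in K562/IM, and was lower than in K562, with a log2 difference of -0.96 ± 0.07 (adjusted p = 2.09e-05). FARSB was at 112, 115 and 110 CPM (-0.75 ± 0.06, adjusted p = 5.4e-05) and FARSA at 172, 169 and 169 CPM (-0.74 ± 0.12, adjusted p = 0.00115). Every K562/IM library lay below every K562 library for these 3 genes, and FARSA and FARSB, which were higher in K562+L, were lower here by nearly equal amounts. KARS1 followed at -0.69 ± 0.08, HARS1 at -0.57 ± 0.09 and SARS1 at -0.54 ± 0.09. CARS1, at 99.8, 93.4 and 102 CPM, was lower, at a log2 difference of -0.50 ± 0.07. VARS1, at 507, 495 and 523 CPM, was lower, at a log2 difference of -0.46 ± 0.08. The other cytosolic members called lower, TARS1, YARS1, GARS1, NARS1, RARS1, IARS1 and MARS1, lay between -0.49 and -0.24. AARS1 was at 527, 517 and 546 CPM (-0.11 ± 0.06), and with EPRS1 (-0.08 ± 0.07), QARS1 (-0.05 ± 0.09) and LARS1 (0.15 ± 0.09) it was not called.

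In the mitochondrial class CARS2 was at 32.3, 39.6 and 40.2 CPM in K562 and at 22.1, 22.2 and 22.9 CPM in K562/IM, lower, at a log2 difference of -0.74 ± 0.10 (adjusted p = 0.00055). EARS2 (glutamate) was at 80.1, 77.4 and 74.9 CPM against 49.2, 49.2 and 51.0 CPM, lower, at a log2 difference of -0.64 ± 0.07 (adjusted p = 0.000162), and FARS2 was at 23.4, 28.8 and 30.1 CPM against 17.4, 18.3 and 18.2 CPM, lower, at a log2 difference of -0.61 ± 0.11 (adjusted p = 0.00213). All 3 were without overlap between the groups. RARS2 (-0.50 ± 0.06), WARS2 (-0.48 ± 0.09), YARS2 (-0.37 ± 0.09) and IARS2 (-0.24 ± 0.07) were the others called lower. The 9 not called ran from -0.32 (SARS2) to 0.16 (AARS2).

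The smaller of these changes depended on single libraries. IARS1 lost the call without K562 replicate 2 (adjusted p = 0.136), K562/IM replicate 1 (0.136) or K562/IM replicate 2 (0.0791). MARS1 and IARS2 lost it in 4 fits each, without K562 replicate 2 or without any 1 of the K562/IM libraries, at adjusted p 0.0519 to 0.0838 and 0.0537 to 0.0813. Without K562 replicate 1, LARS1 was called higher (adjusted p = 0.0207), and AARS1, HARS2, SARS2 and TARS2 were called lower (adjusted p 0.0027 to 0.0495). Scaling by upper quartiles called AARS2 higher (adjusted p = 0.0416), and MARS1 (0.0561) and IARS1 (0.0608) were then no longer called.

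The neighbouring pathways were also lower in K562/IM in most of their called genes. All 3 scaffold genes were lower, from AIMP1 at -0.40 ± 0.06 to EEF1E1 at -0.83 ± 0.09. So were all 5 elongation factor genes, with EEF1D at -1.02 ± 0.12, 17 of 22 tRNA processing and export genes, with POP5, a subunit of RNase P, at -0.96 ± 0.12, and 7 of 10 mitochondrial translation factors, with TSFM at -0.87 ± 0.09. None of the genes in these 3 lists was called higher. Of the other charging and editing genes 1 of 13 was higher and 7 lower. In the ATF4 list 8 of 30 were higher and 13 lower, with a median of -0.19. Over all genes tested 30.1% were called higher and 27.1% lower.

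**Figure D4:**
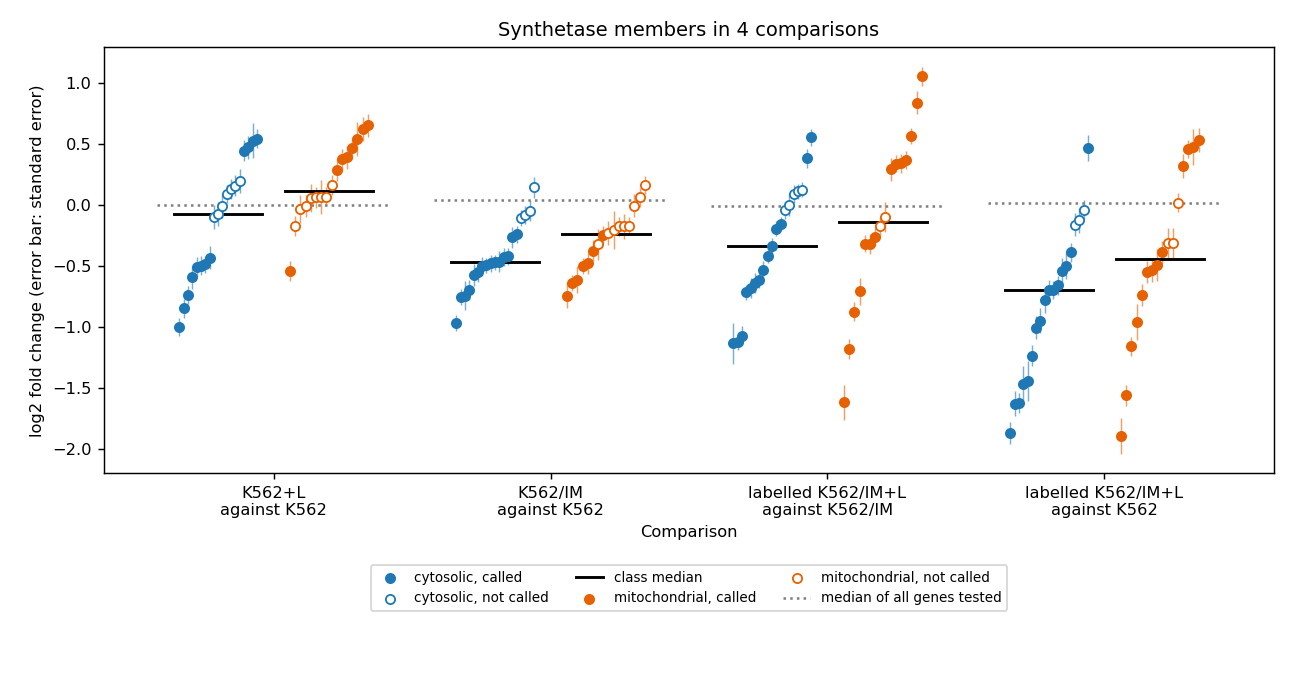
Log2 fold change of every member in the 4 comparisons, cytosolic in blue and mitochondrial in orange, sorted within each class, with standard errors, filled where the adjusted p was under 0.05. The black lines are class medians (-0.07 and 0.12 in the first comparison, -0.70 and -0.44 in the last) and the dotted lines the medians of all genes tested.

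The third comparison set the group labelled K562/IM+L beside K562/IM, to ask what lycorine did in the resistant line, and it rests on the label discussed above. Of the 19 cytosolic members 2 were higher and 12 lower in the labelled libraries, and the 16 mitochondrial members were split, 7 higher and 7 lower. Among 13727 genes 33.2% were called higher and 33.6% lower. The median log2 fold change was -0.33 for the cytosolic and -0.13 for the mitochondrial members, against -0.01 for all genes. Beyond an absolute log2 fold change of 1 were 3 cytosolic members, all lower, and 3 mitochondrial members, 2 lower and 1 higher, against 28.5% of all genes. The erythroid markers given above were 22593 to 30772 CPM in the labelled libraries and 1859 to 2078 CPM in K562/IM, with all 8 called higher. Of the markers of other blood cells 3 of the 6 tested were lower, and of those of stroma, endothelium and epithelium 1 of 4 was higher and 3 lower. The sum of this last list nevertheless was higher, 85.2 to 106 CPM in the labelled libraries against 50.2 to 55.3 CPM in K562/IM. The part of these markers in the differences was not tested.

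IARS1 was at 356, 402 and 426 CPM in K562/IM and at 136, 181 and 214 CPM in the labelled libraries, and fell by 1.13 ± 0.17 (adjusted p = 0.000654). VARS1 was at 507, 495 and 523 CPM against 241, 229 and 220 CPM, and fell by 1.12 ± 0.07 (adjusted p = 7.15e-06). FARSB was at 112, 115 and 110 CPM against 51.5, 57.1 and 49.2 CPM, and fell by 1.07 ± 0.07 (adjusted p = 1.59e-05). The groups did not overlap for any of the 3, and IARS1 varied most within the labelled group. FARSA (172, 169 and 169 CPM against 106, 113 and 94.2 CPM) fell by 0.68 ± 0.08. YARS1 (282, 285 and 289 CPM against 177, 170 and 166 CPM) fell by 0.71 ± 0.06, and WARS1 (164, 160 and 155 CPM in the labelled libraries) by 0.61 ± 0.07. The others called lower were LARS1 (-0.64 ± 0.08), NARS1 (-0.53 ± 0.08), MARS1 (-0.41 ± 0.06), HARS1 (-0.33 ± 0.06), RARS1 (-0.19 ± 0.06) and TARS1 (-0.16 ± 0.06).

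QARS1 and CARS1 were the cytosolic members called higher. QARS1 was at 220, 213 and 228 CPM in K562/IM and at 333, 325 and 298 CPM in the labelled libraries, and rose by 0.56 ± 0.07 (adjusted p = 0.00029). CARS1 rose from 99.8, 93.4 and 102 CPM to 128, 134 and 115 CPM, by 0.38 ± 0.08 (adjusted p = 0.0035). In both genes the groups were apart. AARS1, at 573, 548 and 567 CPM, had a log2 fold change of 0.11 ± 0.06 and was not called, nor were GARS1 (0.13 ± 0.06), SARS1 (0.09 ± 0.07), EPRS1 (0.00 ± 0.09) and KARS1 (-0.04 ± 0.07). Without the labelled replicate 3, GARS1 (adjusted p = 0.0088) and SARS1 (0.00955) were called higher, which made 4 cytosolic members higher in place of 2. Upper-quartile scaling likewise gave 4, with AARS1 (adjusted p = 0.0404) and GARS1 (0.0366) called higher.

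The mitochondrial class held the largest changes in both directions. MARS2 was at 26.1, 27.2 and 23.7 CPM in K562/IM and at 8.33, 6.77 and 9.56 CPM in the labelled libraries, and fell by 1.61 ± 0.14 (adjusted p = 4.85e-05). LARS2 was at 75.7, 73.2 and 84.7 CPM against 33.2, 33.2 and 35.1 CPM, and fell by 1.17 ± 0.08 (adjusted p = 1.5e-05). WARS2 moved the other way, from 16.5, 16.9 and 16.0 CPM to 31.7, 35.4 and 33.6 CPM, and rose by 1.06 ± 0.08 (adjusted p = 2.02e-05). Each of these genes had its groups far apart. SARS2, much of whose exon sequence is shared with other genes, was at 32.8, 30.3 and 30.0 CPM against 56.4, 59.1 and 48.2 CPM and rose by 0.84 ± 0.09. RARS2 rose by 0.57 ± 0.06, VARS2 by 0.37 ± 0.08, FARS2 by 0.34 ± 0.08, AARS2 by 0.34 ± 0.07 and CARS2 by 0.29 ± 0.09. The others called lower were EARS2 (-0.87 ± 0.08), NARS2 (-0.71 ± 0.11), YARS2 (-0.32 ± 0.08), TARS2 (-0.32 ± 0.07) and IARS2 (-0.26 ± 0.08), and HARS2 (-0.17 ± 0.08) and PARS2 (-0.10 ± 0.12) were not called.

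Opposite calls were made for FARSA and FARSB against FARS2, RARS1 against RARS2, VARS1 against VARS2 and WARS1 against WARS2, with the cytosolic member lower each time. RARS2 was at 57.0, 58.9 and 56.8 CPM in K562/IM and at 86.8, 83.6 and 80.5 CPM in the labelled libraries, while RARS1 was at 140, 149 and 147 CPM against 126, 126 and 123 CPM. VARS2, whose reads may be mixed with those of GTF2H4, was at 84.6, 74.5 and 83.5 CPM against 106, 104 and 98.1 CPM. FARS2 was at 17.4, 18.3 and 18.2 CPM against 22.9, 23.3 and 20.9 CPM. Per kilobase, WARS1 over WARS2 was 9.94, 9.59 and 10.8 in K562/IM and 3.45, 3.03 and 3.08 in the labelled libraries, and MARS1 over MARS2 was 12.1, 11.5 and 13.8 against 28.6, 35 and 23.9. The quotient thus moved down for tryptophan and up for methionine. RARS1, TARS1, CARS2 and IARS2 each lost the call in 5 of the 6 fits that left out 1 library, all but the fit without the labelled replicate 3, at adjusted p 0.0515 to 0.14.

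Around the synthetases, all 5 elongation factor genes were higher in the labelled libraries, led by EEF1D (1.26 ± 0.14), while 1 of 3 scaffold genes was lower (AIMP2, -0.64 ± 0.12). In tRNA processing and export 5 of 22 genes were higher and 11 lower, with POP1, an RNase P subunit, at -1.65 ± 0.13 and ELAC1, a tRNA 3′ end nuclease, at 1.43 ± 0.20. The ATF4 list was divided, 11 of 30 higher and 11 lower, with ATF4 itself at 0.52 and the amino acid transporters SLC38A2 and SLC7A5 at -1.49 and -1.24. Mitochondrial translation factors had 1 of 10 higher and 3 lower, and the other charging and editing genes 3 of 13 higher and 3 lower. Over all genes tested 33.2% were called higher and 33.6% lower.

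The fourth comparison set the labelled libraries against untreated K562. It shares its libraries with the comparisons above and differs from K562 in both line and drug by label. Lower members were in the majority, 15 of 19 cytosolic against 1 higher, and 9 of 16 mitochondrial against 4 higher, where 27.8% of 13307 genes were called lower and 28.2% higher. The medians were -0.70 for the cytosolic members, -0.44 for the mitochondrial members and 0.02 for all genes. Scaling by upper quartiles moved the median of all genes to 0.17 and the share of called genes that were higher from 50.4% to 61.3%, and it left the cytosolic count at 15 lower and 1 higher, with class medians of -0.55 and -0.29. Past an absolute log2 fold change of 1 were 7 cytosolic and 3 mitochondrial members, each of them lower, against 23.8% of all genes. The erythroid marker sums differed here as well (4778 to 7000 CPM in K562), with 7 of 8 called higher, and their part was not tested.

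FARSB had the largest cytosolic difference, -1.87 ± 0.09 (adjusted p = 1.2e-05), followed by VARS1 at -1.62 ± 0.10 (adjusted p = 2.53e-05) and WARS1 at -1.62 ± 0.08 (adjusted p = 1.23e-05). FARSA (-1.46 ± 0.14) and IARS1 (-1.44 ± 0.16) came next, IARS1 having been at 451, 511 and 460 CPM in K562. YARS1 was lower, at a log2 difference of -1.23 ± 0.08. NARS1, at 364, 339 and 314 CPM in K562 and 173, 160 and 183 CPM in the labelled libraries, was lower, at a log2 difference of -1.0 ± 0.09. For none of these 7 genes did the groups overlap. The other cytosolic members called lower were HARS1 (-0.95), KARS1 (-0.78), TARS1 (-0.70), MARS1 (-0.70), RARS1 (-0.66), LARS1 (-0.54), SARS1 (-0.49) and GARS1 (-0.39). QARS1, at 205, 229 and 249 CPM in K562, was the cytosolic member called higher (0.47 ± 0.10, adjusted p = 0.00688), and AARS1 (-0.04 ± 0.08), CARS1 (-0.16 ± 0.10) and EPRS1 (-0.12 ± 0.10) were not called.

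In the mitochondrial class MARS2 was lower, at a log2 difference of -1.89 ± 0.15 (adjusted p = 5.8e-05). EARS2, at 26.7, 24.7 and 28.7 CPM in the labelled libraries, was lower, at a log2 difference of -1.56 ± 0.09 (adjusted p = 1.71e-05), and LARS2, at 77.1, 74.3 and 71.8 CPM in K562, at -1.16 ± 0.08 (adjusted p = 3.26e-05). The groups stood apart in all 3. NARS2 (-0.95), YARS2 (-0.73), IARS2 (-0.54), TARS2 (-0.53), CARS2 (-0.49) and HARS2 (-0.39) were also lower. WARS2 (0.54 ± 0.10), SARS2 (0.47 ± 0.15), AARS2 (0.46 ± 0.08) and VARS2 (0.32 ± 0.10) were higher. Opposite calls fell on serine, valine and tryptophan, where SARS1 (316, 327 and 384 CPM in K562, and 256, 257 and 225 CPM in the labelled libraries), VARS1 and WARS1 were lower. SARS2 was at 32.4, 38.8 and 45.2 CPM in K562. Since SARS2 and VARS2 share exon bases with other genes, their reads may be mixed, which limits the serine and valine pairs.

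SARS2 and VARS2 lost their calls without K562 replicate 1 or 2 or the labelled replicate 1 or 2 (adjusted p 0.0655 to 0.106 and 0.0607 to 0.109), which left 2 mitochondrial members higher, and CARS2 lost its call without K562 replicate 2 (0.0592). RARS2 (0.02 ± 0.08), FARS2 (-0.31 ± 0.12) and PARS2 (-0.31 ± 0.12) were not called, FARS2 being called lower without K562 replicate 1 (adjusted p = 0.0182).

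Of the 22 tRNA processing and export genes, 19 were lower and 2 higher, with POP1 at -2.32 ± 0.12. All 3 scaffold genes were lower, AIMP2 at -1.25 ± 0.16. The ATF4 list had 5 of 30 higher and 14 lower, the other charging and editing genes 3 of 13 higher and 7 lower, the mitochondrial translation factors 1 of 10 higher and 6 lower, and the elongation factors 2 of 5 higher and none lower. Over all genes tested 28.2% were called higher and 27.8% lower.

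Across the 4 pairwise comparisons, WARS1, YARS1 and MARS1 were called lower in every one, MARS1 with the exceptions given above for K562/IM, and EPRS1 was called in none. EPRS1 was at 581, 533 and 500 CPM in K562, 486, 478 and 574 CPM in K562+L, 499, 502 and 529 CPM in K562/IM and 486, 458 and 561 CPM in the labelled libraries. Its groups overlapped throughout.

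Whether the lycorine difference itself differed between the lines was tested with an interaction term, the difference of the log2 fold changes (labelled K562/IM+L against K562/IM, minus K562+L against K562). Of the cytosolic members 6 were called with a higher and 9 with a lower value in the resistant line, and of the mitochondrial members 4 and 9, where 29.9% of 13995 genes were called higher and 31.7% lower. The most negative values were those of MARS2 (-2.29 ± 0.17), FARSB (-1.64 ± 0.10) and VARS1 (-1.61 ± 0.11), all 3 of which rose in K562+L and fell in the labelled libraries. The most positive were those of CARS1 (1.21 ± 0.10) and RARS2 (1.08 ± 0.09), which did the reverse. QARS1 also fell in K562+L and rose in the labelled libraries (0.97 ± 0.11). AARS1 (0.83 ± 0.08), SARS1 (0.66 ± 0.12) and GARS1 (0.59 ± 0.08) were called lower in K562+L and were not called in the labelled libraries. MARS1 (0.06 ± 0.09) and EPRS1 (0.05 ± 0.13) were among the 7 members without a called difference. Upper-quartile scaling moved the median of all genes in this test from -0.02 to 0.11, and with it 6 cytosolic members remained higher and 7 lower, and 4 and 6 of the mitochondrial ones.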

How the data were processed

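Poly(A) RNA of 12 libraries was analysed (K562, K562+L, K562/IM and the group labelled K562/IM+L, n = 3 each). The deposited table holds whole-number gene counts made by the authors, not normalized. The submitters' processing notes name FastQC, STAR, StringTie, DESeq2 and the build hg38, and versions, annotation and strand settings are not given in the sources used here. Counts per library ran from 75093844 to 107344598, and of the 23289 values from 1 to 25, 67.9% left a remainder of 0 or 1 on division by 4, where even use of all whole numbers would give 52%. Whether 1 count stands for 1 read is therefore not known. Dividing all counts by 4 changed no member's call.

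Genes were kept by filterByExpr (minimum count 10), scaled by TMM and tested with edgeR 4.0.16 (R 4.3.3, limma 3.58.1, quasi-likelihood F test) within the 2 groups of each comparison, with the interaction fitted on all 12 libraries. P-values were adjusted by Benjamini-Hochberg over all genes tested. CPM use TMM-scaled library sizes. Levels per kilobase use merged exon lengths of GENCODE 29, matched for 19291 of 19447 symbols. Promoters are those of RefSeq (GRCh38.p14). The fits were tested on simulated data.

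Members, partner pairs and gene lists were chosen with earlier results of these data known. All members were accounted for. Library values are given for members past an absolute log2 fold change of 1, otherwise for the 3 largest called changes per class, and for partners called oppositely, with a few further members added after their values were seen (QARS1 and EPRS1). Groups of members picked by their change seldom overlap, so a lack of overlap is a description and no further support. Groups did not overlap for 23, 27, 31 and 31 of the 35 members in the 4 comparisons, in order. The share over all genes was not counted, so these counts are not a result about the members. Alternatives were DESeq2 1.42.0, upper-quartile and RLE scaling, no filter, at least 10 counts in every library, counts divided by 4, all 12 libraries in 1 fit, a replicate block and leaving out each library. Replicates of the same number deviated with correlations of -0.147 to 0.0572 over the 4 comparisons, so the numbers were not taken to pair libraries.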

Additional observations from a re-analysis of the deposited data

Results flagged for a closer look

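Lycorine in the resistant line and in K562 is the contrast concerned, and 28 of 35 members were listed because the difference itself differed between the lines by the interaction test (edgeR, adjusted p under 0.05). By the same test 29.9% of 13995 genes were called higher and 31.7% lower, so most genes tested would be listed by this rule. All values are differences of log2 fold changes, resistant line minus K562, over 3 libraries per group, and all rest on the libraries labelled K562/IM+L. Among cytosolic members the value was positive for CARS1 (1.21), QARS1 (0.97), AARS1 (0.83), SARS1 (0.66), GARS1 (0.59) and WARS1 (0.36). It was negative for FARSB (-1.64), VARS1 (-1.61), FARSA (-1.23), IARS1 (-1.15), LARS1 (-0.86), NARS1 (-0.69), RARS1 (-0.66), TARS1 (-0.27) and YARS1 (-0.23). Mitochondrial members with a positive value were RARS2 (1.08), SARS2 (0.75), WARS2 (0.74) and FARS2 (0.35). Those with a negative value were MARS2 (-2.29), NARS2 (-1.27), LARS2 (-1.26), YARS2 (-0.81), EARS2 (-0.73), PARS2 (-0.51), HARS2 (-0.36), IARS2 (-0.35) and TARS2 (-0.33). The erythroid marker sums differed between the groups in opposite ways in the 2 lines (3517 to 4092 CPM in K562+L against 4778 to 7000 CPM in K562, and 22593 to 30772 CPM in the labelled libraries against 1859 to 2078 CPM in K562/IM), and their part in these differences was not tested. The calls of FARS2 and YARS1 were the least stable. FARS2 lost its call in 9 fits without 1 library (K562 replicate 2 or 3, K562+L replicate 2 or 3, any K562/IM replicate, or labelled replicate 1 or 2; adjusted p 0.0644 to 0.135), and YARS1 in 7 (K562 replicate 1 or 2, K562+L replicate 2, any K562/IM replicate, or labelled replicate 3; adjusted p 0.0528 to 0.0903).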

How the results depend on the processing

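The class medians kept their sign under all alternatives run, and no called member changed direction. The direction with more called members also stayed the same in each class and comparison, with an exception. Between the labelled libraries and K562/IM the mitochondrial calls were even, 7 higher and 7 lower. They were 7 and 8 with all 12 libraries in the fit, and 6 and 7 with the replicate block. Of 127 calls (35 members in the 4 comparisons and the interaction), 24 were lost under at least 1 alternative, 22 of them under 1 other than leaving out a library and 16 with 1 library left out, and 17 results without a call (a member in a comparison) gained one under some alternative. With the replicate block, 5 mitochondrial members were called between K562+L and K562 in place of 8, with AARS2, PARS2 and WARS2 no longer called. Since the replicate numbers did not pair the libraries, this block shares only a number. With 1 library left out, the median of the cytosolic minus that of the mitochondrial log2 fold changes, with the group labelled K562/IM+L set beside K562/IM, ran from -0.23 (without K562/IM replicate 1) to -0.16 (without K562/IM replicate 2), against -0.20 with all libraries. The other counts of members called in either direction stayed within 1.5 times their value. Counts by direction moved more in some fits. Mitochondrial members higher went from 7 to 4 between K562+L and K562 with the replicate block, and from 4 to 2 between the labelled libraries and K562 with the block or without K562 replicate 1 or 2 or labelled replicate 1 or 2. Cytosolic members higher went from 2 to 4 between the labelled libraries and K562/IM under upper-quartile scaling or without labelled replicate 3. Between K562/IM and K562, 1 member was higher in place of 0, mitochondrial under upper-quartile scaling and cytosolic without K562 replicate 1. The largest absolute log2 fold change among the lost calls was 0.54, so calls on larger changes held under every alternative run. The lowest count of a member in a library was 485 in the units of the table, and 3 libraries per group limit the smaller calls.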
